A study of Mus musculus with 4 samples.

Results

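Neurons that carried many transcripts of the activity genes Npas4, Arc and Egr4 were compared with neurons that carried none of them, within L6-Syt6, the authors' name for the layer 6 excitatory neurons of the mouse ventromedial prefrontal cortex (vmPFC) that express Syt6. Cells of both groups were chosen by measured values, the summed raw UMIs of these 3 genes in each cell. A UMI (unique molecular identifier) counts 1 captured transcript. Cells with 10 or more summed UMIs were called activity-high and cells with 0 were called activity-zero. Of 9368 excitatory neurons in the series, 5092 were L6-Syt6, and of these 2897 were activity-high and 283 were activity-zero. The other 1912 cells, with 1 to 9 summed UMIs, were left out of the main comparison.

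The cells came from male C57BL/6 mice that, by the study's methods, were 8 weeks old at the time of injection and were killed 6 weeks later, and that carried barcoded retrograde AAVs expressing EGFP, injected into 5 targets of the vmPFC (AI, DMS, MD, BLA and LH). The labels and methods name 3 unsorted libraries after 1 mouse each, and 1 library of EGFP-sorted cells pooled 3 further mice. No behaviour or drug was compared, and both activity groups were drawn from each of the 4 libraries. All slices were warmed in a buffer with CNQX and D-AP5, which block AMPA and NMDA receptors, and were then digested with papain, protease and dispase. Transcription in the living animal and transcription during dissociation cannot be told apart in this design. The p-values measure the spread between these 4 libraries only.

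Npas4 encodes a transcription factor that neurons make after calcium entry, Arc encodes a cytoskeletal protein that acts at the synapse, and Egr4 encodes a zinc finger factor of the Egr family. All are early response genes, whose transcription starts within minutes of a stimulus from kinases and factors already in the cell, such as CREB and SRF. The first wave holds transcription factors (Fos, Jun, Egr and Nr4a families) and inhibitors that end the signal, and a later wave holds synaptic and secreted proteins such as Homer1 and BDNF. L6-Syt6 neurons belong to the corticothalamic class, which sends axons from layer 6 to the thalamus.

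The grouping genes are described here without a test, since they chose the cells. Values per library are given in the order unsorted 1, 2 and 3 and then sorted. Activity-high cells held a median sum of 28, 28, 32 and 41 UMIs, and the highest single cell held 139, 141, 140 and 235 UMIs. Mean counts per activity-high cell were 8.52, 8.35, 9.17 and 14.0 for Npas4, then 11.4, 11.8, 13.1 and 18.3 for Arc and 12.7, 13.5, 15.0 and 16.5 for Egr4. Just inside the limit, 101 cells with exactly 10 UMIs had a median of 23014 total UMIs and mean counts of 2.52 Npas4, 5.78 Arc and 1.69 Egr4. Just outside it, 118 cells with 9 UMIs had a median of 22893.5 total UMIs and mean counts of 2.26, 5.29 and 1.45. Arc was thus the largest part of the sum at the limit and Egr4 the smallest, whereas in the unsorted activity-high cells as a whole Egr4 was the largest part.

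Activity-high cells were 54.5% ± 0.707 (SD, n = 3) of the L6-Syt6 neurons in the unsorted libraries, with 6.08% ± 0.415 activity-zero, and 70.1% of them in the sorted library (95% Wilson interval 66.8 to 73.2%). These shares depend on depth. After each cell was thinned to 10000 UMIs the activity-high share in the unsorted libraries was 34.4% ± 1.16 and the activity-zero share was 12.8% ± 1.33. By the same rule and depth, 19.1% ± 3.09 of L6-Npy and 15.0% ± 1.86 of L5-S100b neurons were activity-high.

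The groups differed in depth and in mitochondrial share. Activity-high cells had a median of 24201, 25020, 25451 and 37764.5 total UMIs, against 19545, 20237.5, 20259 and 8266 in activity-zero cells. The ratio of the medians was 1.24 ± 0.0110 (SD, n = 3) in the unsorted libraries. Mitochondrial genes took a median of 5.57%, 5.57%, 5.55% and 2.58% of the UMIs of activity-high cells and 6.83%, 6.85%, 6.99% and 12.9% of activity-zero cells. The sorted library stood apart, since its activity-zero group held 21 cells, the shallowest and the highest in mitochondrial share, while each unsorted library gave 85 to 89. The activity-high sums held 19123450 to 20129211 UMIs and the activity-zero sums 323321 to 1758544, the lowest again in the sorted library. Over the whole series the libraries held 54749198 to 87841541 UMIs, and 5 to 30 cell barcodes were shared by any pair of libraries, 6 of them in all among L6-Syt6 neurons.

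Both groups carried the label's markers. The summed level of the 17 corticothalamic identity genes was 4210 to 4588 CPM (counts per 1e6 UMIs of a summed group, scaled by TMM) in activity-high and 2691 to 3861 CPM in activity-zero cells. Syt6 itself stood at 151, 143, 145 and 175 CPM in activity-high and 105, 129, 123 and 95.9 CPM in activity-zero cells. Slc17a7, the vesicular glutamate transporter of cortical excitatory neurons, stood at 1033 to 1063 CPM in activity-high and 1065 to 1255 CPM in activity-zero cells. The 9 excitatory neuron markers together went the other way, at 9475 to 10427 CPM in activity-high and 7905 to 9896 CPM in activity-zero cells. This sum and the corticothalamic sum were lower in activity-zero cells in each library. Markers of other cell classes were low in both groups. Endothelial markers summed to 3.74 to 8.98 CPM in activity-high and 8.94 to 13.1 CPM in activity-zero cells and were higher in activity-zero cells in 4 of 4 libraries. Oligodendrocyte markers (31.4 to 50.5 against 48.3 to 57.2 CPM), astrocyte markers (0.246 to 2.83 against 0.596 to 3.66 CPM) and markers of oligodendrocyte precursors (0.590 to 3.53 against 0 to 9.14 CPM) were higher there in 3 libraries, and microglial (1.48 to 13.7 against 2.59 to 19.1 CPM) and inhibitory neuron markers (2.26 to 8.76 against 3.66 to 18.1 CPM) in 2. Mural cell markers summed to 7.82 to 18.6 against 25.0 to 88.1 CPM, nearly all of it in activity-zero cells from Rgs5, a gene that some neurons also express. The other 3 mural markers summed to 0.492 to 5.47 CPM in activity-high and 0 to 2.27 CPM in activity-zero cells and were higher in activity-high cells in each library. No marker of these lists was at 0 throughout the activity-high sums, and 1 oligodendrocyte marker was at 0 throughout the activity-zero sums. More cells of another class and more of their RNA in a neuron's droplet cannot be told apart in such sums. The part of depth, mitochondrial share and these markers in the differences below was examined by matching cells, by leaving out cells with other-class markers and by leaving out the sorted library.

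To ask which other genes differ between the groups, UMIs were summed per library and group and the 8 sums were tested with edgeR's quasi-likelihood test with library as a block, without the 3 grouping genes and the viral barcode. A gene passed, and is termed called, where its log2 difference was at least 0.5 in size and its adjusted p (Benjamini-Hochberg, over all genes) was under 0.05. Of 13384 genes tested, 936 were higher in activity-high cells (6.99%) and 332 were lower (2.48%), and the median log2 difference of all genes was -0.0037. Among the called genes 206 were at least 2-fold higher and 165 at least 2-fold lower, and 1199 had the same sign in 4 of 4 libraries. Of the calls 73.8% were higher, and 51.2% were higher without the TMM factors, which shifted the median of all genes by -0.12. The number of calls was 781 without unsorted library 1 and 786 without unsorted library 2, against 1268 with all libraries. It was 1142 without cells that held other-class markers. The 12 well-counted genes with the highest differences included the transcription factors Egr2, Nr4a1 and Junb and the signalling inhibitors Dusp1 and Dusp6.

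Egr2, a zinc finger factor of the Egr family, had the largest difference. Its level was 92.8, 94.3, 99.5 and 86.4 CPM in activity-high cells and 4.26, 0.596, 2.84 and 7.78 CPM in activity-zero cells, a 32.2-fold difference (log2 5.01 ± 0.23 SE, edgeR adjusted p = 3.69e-09). All 4 activity-high sums lay far above all 4 activity-zero sums, but the latter held 7, 1, 5 and 3 Egr2 UMIs, so the size of the fold is uncertain. Nr4a1, an orphan nuclear receptor that is an early response gene in many cell types, stood at 183, 192, 218 and 201 CPM against 24.4, 21.4, 21.6 and 23.3 CPM (log2 3.13 ± 0.12, edgeR adjusted p = 1.00e-09). Junb, a partner of Fos proteins in the AP-1 complex, stood at 1522, 1526, 1621 and 1137 CPM against 198, 185, 214 and 148 CPM (log2 2.96 ± 0.12). For both genes the groups did not overlap and the spread within a group was small beside the difference.

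The signalling inhibitors Dusp1 and Dusp6 were also among the 12 genes with the highest differences, as were Arl4d and Gadd45b. Dusp1, a phosphatase that switches off MAP kinases in the nucleus, stood at 441, 428, 453 and 365 CPM in activity-high and 37.2, 38.1, 36.9 and 7.78 CPM in activity-zero cells (log2 3.68 ± 0.17, edgeR adjusted p = 3.44e-09). The sorted activity-zero sum, with 3 Dusp1 UMIs, was the lowest of the 8. Dusp6, which acts on ERK in the cytoplasm, was at 61.8 to 73.3 CPM against 5.19 to 10.1 CPM (log2 3.00 ± 0.15). Arl4d, a small GTPase of the ARF family, stood at 212, 222, 244 and 218 CPM against 12.2, 11.3, 22.7 and 15.6 CPM (log2 3.87 ± 0.15, a 14.6-fold difference). Gadd45b, a stress- and activity-induced gene linked to DNA demethylation in neurons, was at 165 to 235 CPM against 10.4 to 22.2 CPM (log2 3.42 ± 0.13). None of these ranges overlapped.

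The other genes of the 12 with the largest differences had diverse products. Cyr61, a secreted matrix-associated protein, stood at 337, 322, 356 and 329 CPM against 22.5, 17.9, 25.0 and 46.7 CPM (log2 3.80 ± 0.17). Neat1, the noncoding RNA that scaffolds nuclear paraspeckles, stood at 23.0, 25.4, 25.9 and 14.7 CPM against 1.83, 1.19, 1.70 and 5.19 CPM (log2 3.70 ± 0.29). The activity-zero sums held 10 Neat1 UMIs in all, so the size of this difference is uncertain although the groups did not overlap. Tiparp, an ADP-ribosyltransferase, differed by 3.13 ± 0.21, the predicted gene Gm13889 by 3.76 ± 0.22 and the histone H4 gene Hist1h4i by 2.93 ± 0.17 on the log2 scale. Histone H4 genes are near-identical copies, and Dusp1 and Junb overlap Ergic1 and Prdx2 on the other strand in the annotation, so reads of these genes could have been split or shared in the authors' counting.

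**Figure D1:**
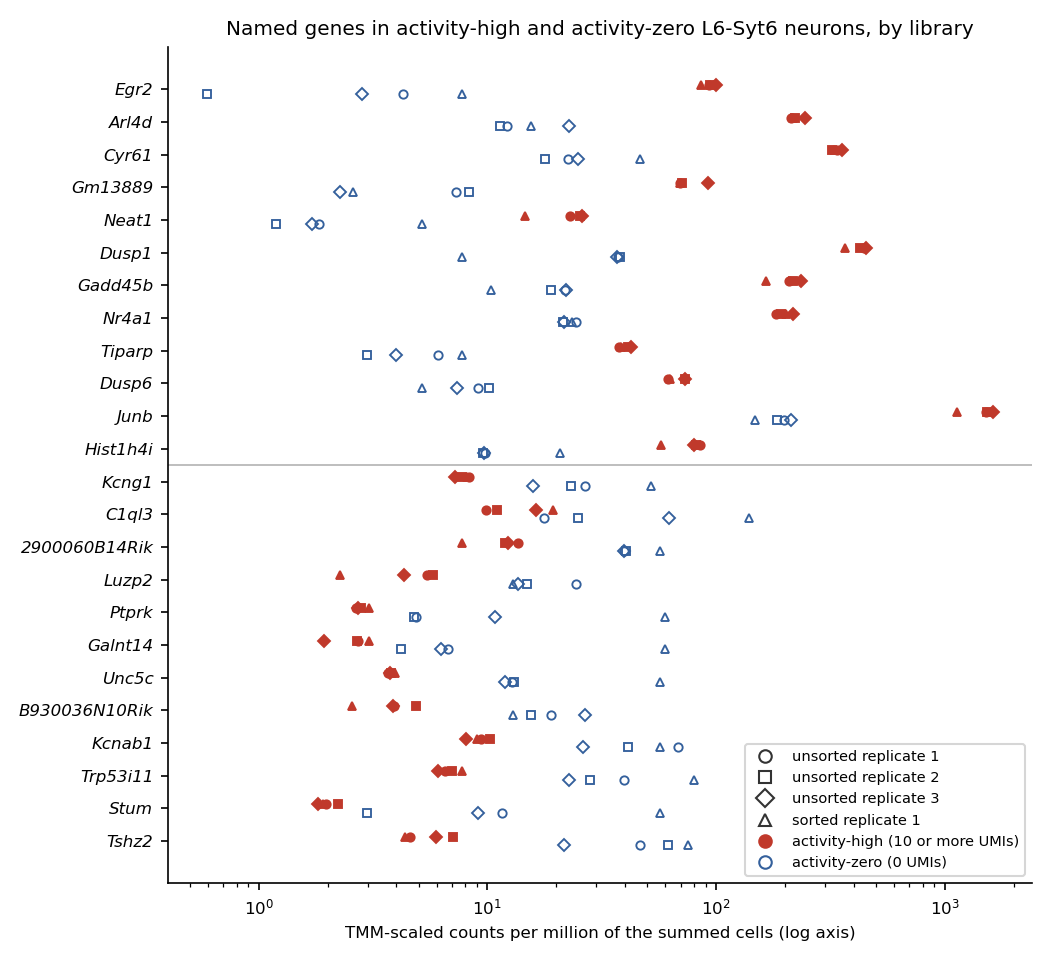
Levels in CPM (log axis) of the 12 genes with the highest and the 12 with the lowest log2 difference in L6-Syt6 neurons, 1 filled point for each of the 4 activity-high sums and 1 open point for each of the 4 activity-zero sums, with the library given by the symbol. Egr2 lies at 86.4 to 99.5 CPM in activity-high and 0.596 to 7.78 CPM in activity-zero cells, and the order is the opposite in the lower 12 genes, where the activity-zero points spread widely and only those of C1ql3 overlap the other group.

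The promoters of 5 genes higher in activity-high cells are shown. CREB and SRF, which start early response transcription, bind short motifs near many early response genes. The windows of Dusp6, Gadd45b and Tiparp held no match and are not shown. Each sequence is the 250 bases before the annotated start on the gene's strand, from RefSeq on GRCm38.p6. Capitals mark every match to the CRE (TGACGTCA), to its core TGACG or the reverse complement CGTCA, and to the CArG box bound by SRF. The windows are chr12:85473640-85473889 (+ strand) for Fos, chr15:101266596-101266845 (+ strand) for Nr4a1, chr17:26508473-26508722 (- strand) for Dusp1, chr11:101665291-101665540 (+ strand) for Arl4d and chr10:67537619-67537868 (+ strand) for Egr2, the last being 1 of 5 annotated starts. The Egr2 window was chosen as the first of these that held both a TGACG core and a CArG box.
Fos: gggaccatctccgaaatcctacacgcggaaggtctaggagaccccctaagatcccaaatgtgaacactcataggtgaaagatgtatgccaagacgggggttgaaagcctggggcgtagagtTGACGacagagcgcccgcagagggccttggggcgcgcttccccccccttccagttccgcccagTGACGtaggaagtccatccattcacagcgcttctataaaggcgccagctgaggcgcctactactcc
Nr4a1: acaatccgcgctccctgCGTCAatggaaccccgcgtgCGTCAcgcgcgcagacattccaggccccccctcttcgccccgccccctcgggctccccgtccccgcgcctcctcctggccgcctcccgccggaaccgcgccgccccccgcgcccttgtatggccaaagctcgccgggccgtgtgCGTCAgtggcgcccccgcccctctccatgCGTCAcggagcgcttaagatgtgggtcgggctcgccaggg
Dusp1: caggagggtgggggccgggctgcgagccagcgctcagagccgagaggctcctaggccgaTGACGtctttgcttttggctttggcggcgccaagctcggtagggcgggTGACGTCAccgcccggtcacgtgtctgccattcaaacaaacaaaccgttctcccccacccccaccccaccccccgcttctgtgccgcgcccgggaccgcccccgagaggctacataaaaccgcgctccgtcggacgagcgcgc
Arl4d: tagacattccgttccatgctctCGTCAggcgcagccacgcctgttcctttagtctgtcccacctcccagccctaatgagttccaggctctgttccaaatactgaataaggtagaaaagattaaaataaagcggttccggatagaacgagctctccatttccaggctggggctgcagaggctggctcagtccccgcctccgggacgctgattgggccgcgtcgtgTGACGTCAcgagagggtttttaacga
Egr2: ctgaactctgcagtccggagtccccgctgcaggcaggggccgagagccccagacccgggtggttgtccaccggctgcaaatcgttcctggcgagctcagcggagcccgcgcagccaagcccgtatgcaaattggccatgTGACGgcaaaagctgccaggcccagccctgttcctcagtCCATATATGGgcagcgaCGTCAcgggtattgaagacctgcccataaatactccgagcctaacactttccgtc

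In these windows Dusp1 held a CRE 143 to 136 bases and Arl4d a CRE 26 to 19 bases before the start, Fos held 2 TGACG cores, Nr4a1 held 4 in the reverse orientation, and Egr2 held a core in each orientation and a CArG box 72 to 63 bases before the start. The CRE was searched in either orientation in 300-base windows (250 before to 50 after the start) and every CRE also counts as a TGACG core. It was present in 1.79% of all 32851 windows, in 3.73% of 10109 tested genes with a window and in 6.15% of the 715 called higher. The TGACG core was present in 20.8% of all windows, 35.7% of tested genes and 42.5% of those called higher, and in 7 of 10 AP-1 genes and 12 of 18 matched Egr, Nr4a and Klf genes. The CArG box was present in 1.63% of all windows, 1.64% of tested genes and 2.66% of those called higher, and the AP-1 motif TGAGTCA in 5.20%, 4.15% and 3.78%. These counts describe letters in a window and were not tested as sites.

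Of the 10 AP-1 genes tested, 7 were higher and none was lower, against 6.99% of all genes, and their median log2 difference was 1.72. Fos stood at 947, 966, 1082 and 876 CPM in activity-high and 136, 146, 139 and 127 CPM in activity-zero cells (log2 2.82 ± 0.12, edgeR adjusted p = 2.59e-09). Jun stood at 1057, 1032, 1061 and 1027 CPM against 361, 395, 356 and 373 CPM (log2 1.49 ± 0.12), so it was present at a substantial level in cells without Npas4, Arc or Egr4. Fosb (log2 2.41), Fosl2 (2.25), Atf3 (1.34) and Jund (1.09) rose as well, with Junb as given above. Atf3 passed at an edgeR adjusted p of 0.029 and was not called without any single unsorted library (log2 1.32 to 1.48).

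Of 27 Egr, Nr4a, Klf and related factors tested, 16 were higher and none lower (median log2 0.64). Egr1, a widely used activity marker, stood at 1288, 1304, 1364 and 1255 CPM against 552, 521, 487 and 446 CPM (log2 1.38 ± 0.12), a smaller difference than that of Egr3, at 354 to 410 against 70.0 to 99.4 CPM (log2 2.06). Nr4a2 stood at 150, 148, 169 and 130 CPM against 22.5, 29.2, 25.6 and 25.9 CPM (log2 2.57 ± 0.12) and Nr4a3 at 80.4 to 104 CPM against 35.2 to 59.6 CPM (log2 0.99). Members of the Egr and Nr4a families thus had separate ranges in the groups, with the smallest differences for Egr1 and Nr4a3. Per1, a clock gene that is also an early response gene, rose by 1.36 and Ier2 by 2.41 on the log2 scale.

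Of 32 feedback inhibitors tested, 10 were higher and none lower (median log2 0.40). Besides Dusp1 and Dusp6 they included Btg2, an antiproliferative cofactor of mRNA decay, at 412 to 455 CPM against 67.6 to 85.6 CPM (log2 2.55), Trib1 (log2 2.08), a pseudokinase that restrains MAP kinase signalling, and Sik1 (log2 1.70), a kinase that inhibits CREB coactivators. Sik1 was not called without any single unsorted library (log2 1.08 to 2.47). Among the upstream kinases and coactivators genes were called in both directions, where 6.99% of all genes were higher and 2.48% lower. Of 35 tested, Elk4 (log2 0.74) and Map2k1 (0.57) were higher and Elk1 (-0.50), Ep300 (-0.52), Crtc3 (-0.59) and Camk2d (-1.33) were lower, with a list median of 0.05 that became -0.08 without TMM scaling. Of these genes only Camk2d was called whichever single library was left out (-1.58 to -1.15).

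Synaptic and dendritic effectors were mixed. Of 33 tested, 13 were higher and 2 lower (median log2 0.37). Gadd45g stood at 421 to 534 CPM against 70.7 to 106 CPM (log2 2.63) and Plk3, a kinase of the stress response, differed by 1.29 on the log2 scale. Homer1, a scaffold of the postsynaptic density whose short form is activity-induced, stood at 314, 321, 315 and 286 CPM against 189, 205, 199 and 156 CPM (log2 0.71), with no overlap. The genes lower in activity-high cells were Sorcs3, a sorting receptor (log2 -1.33), and Ntng1, a netrin-related adhesion protein (log2 -2.56).

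Secreted factors and peptides gave 3 genes higher and 4 lower of 21 tested (median log2 -0.19). Bdnf, the neurotrophin of the late response, stood at 27.4, 31.0, 35.5 and 27.8 CPM in activity-high and 18.3, 13.1, 13.6 and 54.4 CPM in activity-zero cells (log2 0.78 ± 0.24, edgeR adjusted p = 0.0453). It was higher in the 3 unsorted libraries and lower in the sorted one, where the 21 activity-zero cells gave the highest level of the 8 sums. Without the sorted library its log2 difference was 1.05, and it was not called without any single unsorted library (0.49 to 0.83). Ptgs2, the inducible cyclooxygenase grouped with this list, stood at 12.7, 14.8, 16.4 and 13.7 CPM against 6.09, 4.77, 7.38 and 10.4 CPM (log2 1.18 ± 0.22), and Cyr61 was the third of the higher genes. The lower genes were Nov (log2 -1.09), Cck (-0.69), Ctgf (-0.60) and Sst (-1.81). Sst was called lower although it was higher in 3 of 4 libraries, because the activity-zero sum of unsorted library 3 held 44.3 CPM and the other 7 sums held 0 to 4.31 CPM. Without that library its log2 difference was 0.57 and not called. Cck was not called without unsorted library 1 (-0.72) or 3 (-0.37), nor was Ctgf without library 1 (-0.42) or 2 (-0.62).

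Stress genes were higher in activity-high cells too. Of 22 heat shock and chaperone genes tested, 11 were higher and none lower (median log2 0.50). Hspa1a, an inducible HSP70 gene, stood at 263, 286, 311 and 236 CPM in activity-high and 41.4, 54.8, 44.3 and 23.3 CPM in activity-zero cells (log2 2.68), although it has a near-identical copy, Hspa1b (log2 1.65). Dnajb1, an HSP40 cochaperone, was at 268 to 280 CPM against 44.3 to 56.0 CPM (log2 2.50 ± 0.12) and Hspa8, the constitutive HSC70, at 1424 to 1983 CPM against 241 to 949 CPM (log2 1.50 ± 0.19). None of these ranges overlapped, and the sorted activity-zero sum was the lowest for Hspa1a and Hspa8.

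Of 17 genes of the integrated stress and unfolded protein response, Ppp1r15a (log2 1.50), Asns (1.03), Ddit4 (0.64) and Atf4 (0.59) were higher and none lower, but Atf4 was not called without unsorted library 1 (0.52) or 2 (0.56) and Ddit4 not without library 1 (0.47) or 3 (0.73). Of 15 genes often induced by tissue dissociation and not in the lists above, 3 were higher, among them Ubb (log2 1.55) and Cebpb (0.64), and none lower (median log2 0.64). Of 7 glucocorticoid targets, Sgk1, a kinase induced by the hormone and by activity, was higher (log2 1.22) and Zbtb16 was lower (-0.59). Without unsorted library 3 neither Cebpb (0.60) nor Zbtb16 (-0.55) was called, and Zbtb16 was not called without library 2 either (-0.58). The genes of these lists are also induced by enzymatic digestion in many tissues, and which share of their difference arose there was not tested.

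Of 87 tested genes of 4 lists of receptor subunits and ion channels, 6 were lower (6.90%, against 2.48% of all genes) and 1 was higher (1.15%, against 6.99%). Of 13 ionotropic glutamate receptor subunits only Grin3a was called, at 2.60 to 3.37 CPM in activity-high cells and up to 23.3 CPM in activity-zero cells (log2 -2.27). Of 12 GABA-A receptor subunits Gabrd was higher (log2 0.73) and Gabrg1 lower (-2.23), and Gabrd lost its call without any single unsorted library (0.57 to 0.74) and Gabrg1 without library 1 (-2.30) or 3 (-2.25). Of 33 potassium channel genes Kcna2 (-0.53) and Kcnb2 (-0.55) were lower, and of 29 sodium, calcium and HCN channel genes Hcn3 (-1.25) and Cacna2d3 (-1.96) were lower. The potassium channel subunits Kcnab1 (-2.31) and Kcng1 (-1.68), which are not in these lists, were lower as well. Hcn3 lost its call without unsorted library 1 (-1.16), Cacna2d3 without library 2 (-1.94) and Kcnb2 without either (-0.53 and -0.58). Of 17 corticothalamic identity genes, Crym, a thyroid hormone binding protein, was higher at 557 to 591 CPM against 140 to 385 CPM (log2 0.97), as was the transcription factor Nfia (0.51). None of 9 excitatory neuron markers was called. Of 6 nuclear noncoding RNAs Neat1 was higher and Mirg lower (log2 -0.71), and of 13 mitochondrially encoded genes mt-Co2 and mt-Co3 were lower (both -0.52, list median -0.42). The calls of Nfia, mt-Co2 and mt-Co3 were lost when any single library was left out, at log2 differences of 0.37 to 0.59, -0.62 to -0.30 and -0.62 to -0.28.

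**Figure D2:**
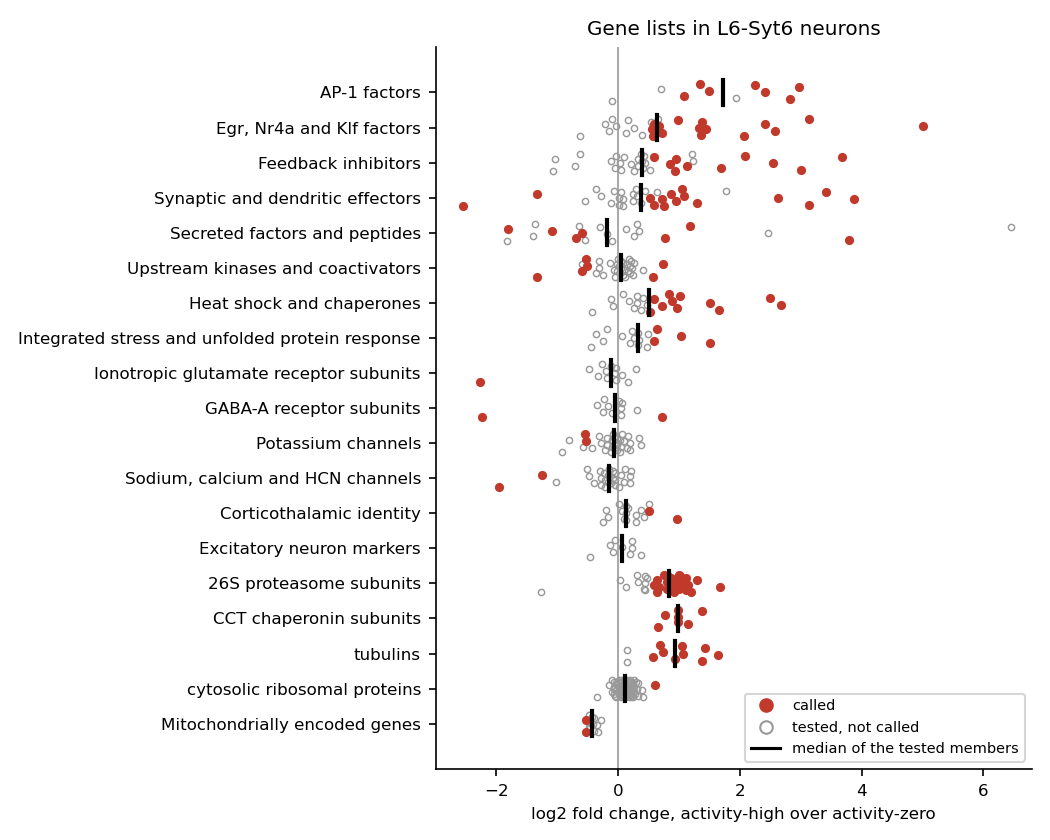
Log2 fold change of activity-high over activity-zero L6-Syt6 cells for the tested members of 19 gene lists and families, 1 point per gene, filled where called and open where not, with a bar at the median. The AP-1 median lies at 1.72 and the proteasome, CCT and tubulin medians at 0.84, 0.98 and 0.93, whereas the medians of the channel and receptor lists lie close to 0.

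Several gene families outside these lists rose together. They were picked after their values had been seen, so their counts are a description. Most calls of the proteasome, CCT and tubulin genes were lost in cells matched on total UMIs and mitochondrial share, as given below. Of 36 subunits of the 26S proteasome, which degrades ubiquitinated proteins, 26 were higher and none lower (median log2 0.84). Psmd6, a subunit of its regulatory lid, stood at 138, 144, 145 and 125 CPM in activity-high and 41.4, 38.1, 61.3 and 20.7 CPM in activity-zero cells (log2 1.67 ± 0.13). All 7 tested subunits of the CCT chaperonin, which folds actin and tubulin, were higher (median 0.98), led by Cct7 (log2 1.38). Of 11 tubulin genes 9 were higher (median 0.93), led by Tuba1a at 1268, 1315, 1388 and 1078 CPM against 454, 403, 527 and 251 CPM (log2 1.65 ± 0.14). Both Psmd6 and Tuba1a had separate ranges, and both were lowest in the sorted activity-zero sum.

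Other large families behaved differently from these. Nuclear-encoded subunits of the respiratory chain and ATP synthase gave 17 higher of 74 tested (median log2 0.36). Of 79 cytosolic ribosomal protein genes only Rplp0 was called (log2 0.61), with a list median of 0.11 that became -0.03 without TMM scaling. Histone genes went both ways, with 8 higher and 4 lower of 31 tested. Hist1h2ac, for example, was at 30.7 to 36.8 CPM against 82.9 to 166 CPM (log2 -1.42).

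The genes lower in activity-high cells were led by Tshz2, a zinc finger homeobox factor that marks other deep-layer neurons, at 4.60, 7.09, 5.97 and 4.38 CPM in activity-high and 46.3, 61.4, 21.6 and 75.2 CPM in activity-zero cells (8.15-fold lower, log2 -3.03 ± 0.24, edgeR adjusted p = 2.10e-06). Kcnab1, a beta subunit of voltage-gated potassium channels, stood at 9.40, 10.3, 8.07 and 9.05 CPM against 68.2, 41.1, 26.1 and 57.0 CPM (log2 -2.31 ± 0.18). Trp53i11 was at 6.08 to 7.77 CPM against 22.7 to 80.4 CPM (log2 -2.41 ± 0.21). The activity-zero sums of these genes varied among libraries far more than the activity-high sums did, while the ranges stayed apart. In cells matched on total UMIs Tshz2 was no longer called, as given below.

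Some of the lower genes leaned on the sorted library. Galnt14, a glycosyltransferase, stood at 1.94 to 3.05 CPM in activity-high cells and 6.70, 4.17, 6.25 and 59.6 CPM in activity-zero cells (log2 -2.13), and Ptprk, a receptor tyrosine phosphatase, at 2.67 to 3.05 CPM against 4.87, 4.77, 10.8 and 59.6 CPM (log2 -2.12). Unc5c, a netrin receptor, was at 3.69 to 3.94 CPM against 12.8, 13.1, 11.9 and 57.0 CPM (log2 -2.20), and Stum at 1.82 to 2.23 CPM against 11.6, 2.98, 9.09 and 57.0 CPM (log2 -2.71 ± 0.50). C1ql3, a secreted C1q-like synaptic protein, had overlapping groups at 9.83 to 19.3 CPM and 17.7 to 140 CPM (log2 -1.77). Ptprk was not called without unsorted library 3 (-2.19). In each of these 5 genes the sorted activity-zero sum was the highest of the 8.

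Of the remaining lower genes, Luzp2 (log2 -1.81) and Kcng1, a modulatory potassium channel subunit (-1.68), were lower in all 4 libraries. The noncoding genes B930036N10Rik (-2.28) and 2900060B14Rik (-1.79) overlap Alyref2 and Clasp1 on the other strand, and how the authors' counting treated strand is not given in the sources used here. Rgs5, a mural cell marker that some neurons also express, was lower as well, at 7.33 to 13.1 CPM against 22.7 to 88.1 CPM (log2 -1.57), while Vtn, of the same marker list, was higher (log2 1.83) and was not called without any single unsorted library (1.70 to 2.11). The genes that name the other 6 subtypes summed to 8.02 to 11.9 CPM in activity-high and 9.53 to 41.5 CPM in activity-zero cells. Of the 6, none was called with all libraries and 3 of 5 tested were called lower without the sorted library. The activity-zero sum was the higher one in 3 libraries and the lower one in unsorted library 2 (9.53 against 9.93 CPM), and the part of these transcripts in the lower genes was not tested.

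Levels were also followed over 5 bins of the summed UMIs (0, 1 to 2, 3 to 9, 10 to 19, and 20 or more), as means over the 3 unsorted libraries. These bins come from the grouping rule and are given without a test. Fos was higher in each bin than in the one before, from 140 ± 5.13 CPM (SD, n = 3) through 212, 348 and 541 to 1173 ± 85.1 CPM. Egr2 went from 2.56 ± 1.84 through 10.5, 22.3 and 50.4 to 113 ± 5.73 CPM, and Dusp1 from 37.2 ± 0.637 through 49.0, 109 and 232 to 520 ± 7.39 CPM. Their levels thus differed between bins on both sides of the limit of 10 UMIs.

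The bins separated other patterns. Hspa8 stayed at 805 ± 121, 797 and 889 CPM in the lower bins and reached 1139 and 2167 ± 92.3 CPM in the upper ones, Tuba1a went through 460, 430, 526, 854 and 1502 CPM and Psmd6 through 46.8, 47.4, 65.8, 103 and 157 CPM. These 3 genes, unlike Fos, were level from 0 to 2 summed UMIs. Bdnf stood at 14.9, 13.8, 13.5 and 16.7 CPM and was raised in the highest bin alone, at 36.8 ± 4.42 CPM, while in the sorted library it went through 54.2, 26.5, 17.8, 23.8 and 28.7 CPM. Tshz2 went from 42.9 ± 20.0 through 19.6, 12.7 and 7.24 to 5.31 ± 0.553 CPM and Kcnab1 from 45.0 ± 21.2 through 30.3, 13.8 and 12.7 to 7.83 ± 0.893 CPM. In these means the largest step lay between 0 and 1 to 2 UMIs for Tshz2 and between 1 to 2 and 3 to 9 UMIs for Kcnab1. Both genes varied widely among libraries at 0 UMIs, so the largest step of a single library may lie elsewhere.

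**Figure D3:**
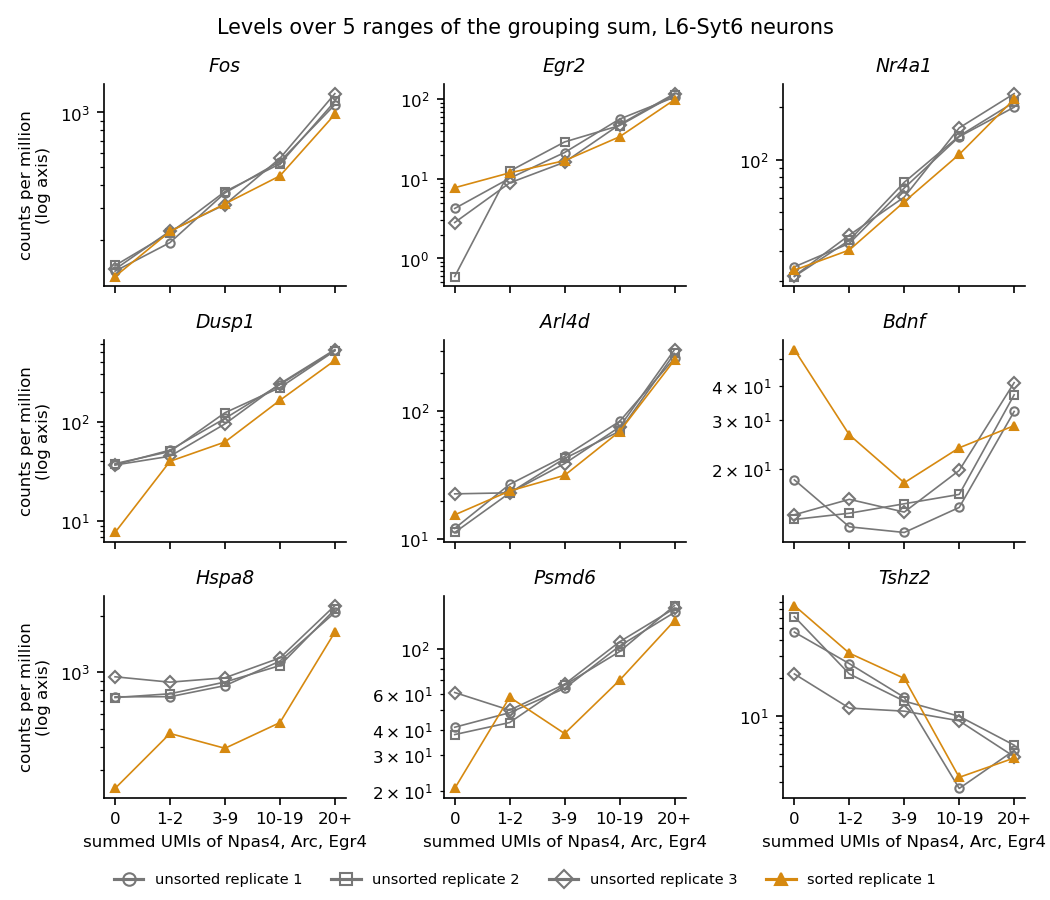
Level in CPM (log axes) of 9 genes in 5 bins of the summed UMIs of Npas4, Arc and Egr4 in L6-Syt6 neurons, with 1 line for each unsorted library in grey and 1 for the sorted library in orange. Fos and Egr2 climb across all bins, Hspa8 and Psmd6 climb in the upper bins, Tshz2 goes down, and Bdnf starts high in the sorted library only.

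To hold depth equal, each activity-zero cell was paired within its library with an activity-high cell whose total UMIs differed by at most 0.1 on the log2 scale, which kept 80, 80, 82 and 16 pairs. Of 10591 genes tested, 463 were higher (4.37%) and 177 lower (1.67%). Of the 936 genes higher in all cells 912 were tested here, 420 were called again and 2 changed sign, and the median log2 difference of these 912 went from 0.73 to 0.54. Of the 332 lower genes 274 were tested, 113 were called again and 6 changed sign (median from -0.84 to -0.68). In the lists of early response factors 6 of 8 AP-1 genes (median log2 1.99), 16 of 25 Egr, Nr4a and Klf factors (0.74) and 9 of 21 feedback inhibitors (0.67) were higher and none was lower.

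The early response genes kept their differences in matched cells. Fos differed by 2.84, Egr2 by 5.10, Nr4a1 by 3.46, Arl4d by 3.83 and Dusp1 by 3.49 on the log2 scale, and all 12 of the named higher genes were called. Bdnf differed by 1.35 and Ptgs2 by 1.66, more than in all cells. Hspa8 differed by 0.93, Psmd6 by 1.26 and Tuba1a by 1.15, less than in all cells, and the proteasome list had 19 of 35 higher (median 0.56). Tshz2 differed by only -0.42, Ptprk by -0.44 and C1ql3 by -0.38 and none of them was called, while the other 9 of the 12 named lower genes were.

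Mitochondrial share still differed between the matched cells, with medians of 5.89%, 5.86%, 5.58% and 3.06% in activity-high and 6.82%, 6.75%, 6.91% and 5.25% in activity-zero cells. A pairing on both measures, added after this was seen, kept 75, 73, 74 and 12 pairs and called 334 of 10404 genes, 225 of them higher (2.16%). The 12 named higher genes were all called again, with Fos at 2.77, Egr2 at 5.07 and Arl4d at 3.68, and 16 of 25 Egr, Nr4a and Klf factors were higher (median log2 0.84). The families moved further toward 0, with 3 of 35 proteasome subunits (median 0.29), 2 of 7 CCT subunits (0.30) and 1 of 11 tubulins (0.23) called higher. Ptprk and C1ql3, lower in all cells, were at 0.76 (not called) and 0.89 (called higher), and Cck went from -0.69 in all cells through -0.05 to 1.05, where it was called higher. Crym, at 0.97 in all cells, was 0.60 after matching on UMIs and 0.20 (not called) after matching on both measures. Thus the medians of these families were smaller in cells matched on both measures, whereas that of the Egr, Nr4a and Klf list was not. Fewer members of that list were tested in matched cells, so its medians are not of the same genes.

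**Figure D4:**
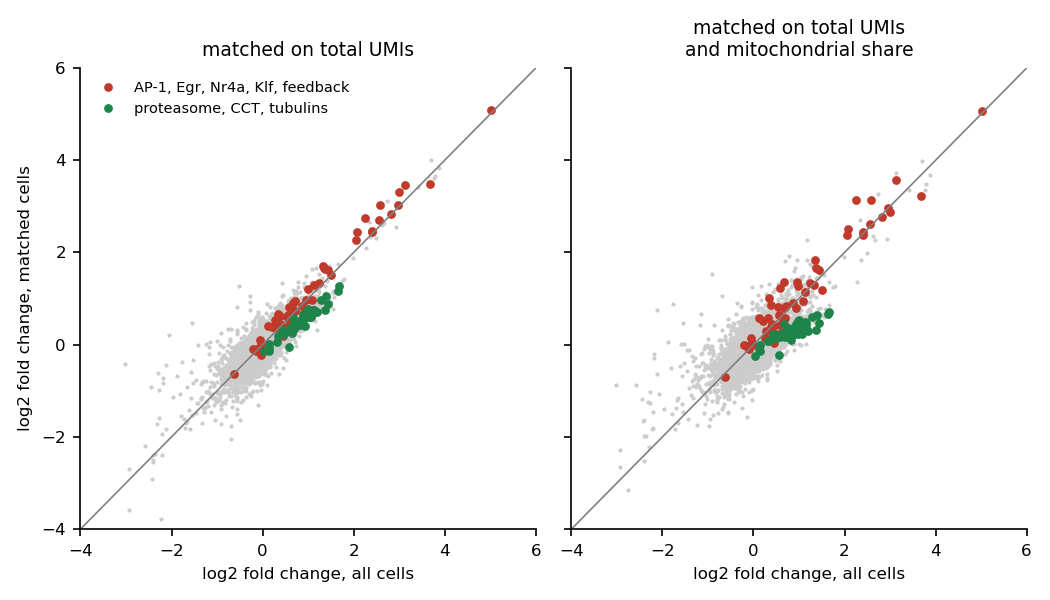
Log2 fold change of activity-high over activity-zero L6-Syt6 cells in all cells (x axis) against matched cells (y axis), 1 point per gene, with cells matched on total UMIs in the left panel and on total UMIs and mitochondrial share in the right panel. The AP-1, Egr, Nr4a, Klf and feedback genes (red) lie along the line of equal values in both panels, while the proteasome, CCT and tubulin genes (green) lie below it, further so in the right panel.

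Leaving out the sorted library gave 1310 called genes, and 770 of the 936 higher and 314 of the 332 lower genes were called again with none changing sign. All 24 named genes were called again. Whether the sorted library differed from the 3 unsorted ones in these differences was tested as an interaction, in which the single sorted library was assumed to vary like the others. Of 14161 genes, 1011 were called (7.14%). The interaction was positive for 825 of them, which is a more positive log2 difference in the sorted library, whatever its size. Of the 12 named higher genes only Dusp1 was called (interaction log2 2.00, on 3 UMIs in the sorted activity-zero sum), and it was not called in matched cells (1.66), where Cyr61 was (-2.06). Of the 12 named lower genes, Galnt14 (-3.04), Ptprk (-2.95), Stum (-2.92), Unc5c (-2.09), C1ql3 (-1.34), Tshz2 (-1.24), 2900060B14Rik (-1.20) and Trp53i11 (-1.16) were called and were thus lower by more in the sorted library. Bdnf was called in the same direction (-2.02). In matched cells C1ql3 was called in the opposite direction (1.74) and the other 7 lower genes and Bdnf were not called. With all cells, the interaction was not called for Dusp1 without unsorted library 2 (1.96), for Tshz2 without library 3 (-0.88) or for Trp53i11 without library 2 or 3 (-1.07 and -1.05). Among all genes, 51 of 79 ribosomal protein genes, 58 of 74 respiratory chain genes and 19 of 36 proteasome subunits were higher and 11 of 13 mitochondrially encoded genes lower. After matching on total UMIs 135 genes were called, and 3, 33 and 2 members of the first 3 families and 1 mitochondrially encoded gene remained among the calls.

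The same rule in other subtypes showed where L6-Syt6 differed. L6-Npy, a layer 6 subtype of 1118 cells, had 313 activity-high and 192 activity-zero cells with closer depth (medians of 20089.5 to 26936 against 18150 to 24581.5 UMIs). In L6-Npy 290 of 10095 genes were higher in activity-high cells (2.87%), among them 6 of 7 AP-1 genes, 16 of 26 Egr, Nr4a and Klf factors and 12 of 18 feedback inhibitors. In L5-S100b, with 532 activity-high and 146 activity-zero cells of 1409, 539 of 11184 genes were higher (4.82%), among them 5 of 8 AP-1 genes, 13 of 26 Egr, Nr4a and Klf factors and 9 of 24 feedback inhibitors. The genes called higher in L6-Syt6 shared 127 with L6-Npy, 13.6% of the L6-Syt6 and 43.8% of the L6-Npy calls, and 141 with L5-S100b, 15.1% and 26.2% of the calls. The comparisons share libraries but no cells.

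The interaction with L6-Npy was called for 760 of 11061 genes (6.87%). No AP-1 gene of 9 tested differed by this test, and Fos differed by 3.09 in L6-Npy (interaction log2 0.31 ± 0.13, edgeR adjusted p = 0.181). Of 16 secreted factors tested, 9 had a positive interaction, that is a more positive log2 difference in L6-Npy, and none had a negative one. Bdnf was at 393 ± 58.8 CPM (SD, n = 4) in activity-high and 53.7 ± 25.7 CPM in activity-zero L6-Npy cells (log2 2.91), an interaction of 2.17 ± 0.42 (edgeR adjusted p = 0.0024) that was 2.00 and not called without unsorted library 1. Nr4a2 was at 365 ± 52.8 CPM against 5.08 ± 1.93 CPM (interaction 3.65 ± 0.28), and Ptgs2 (2.04), Nr4a1 (1.48), Nr4a3 (1.23) and Tiparp (2.64) had larger differences in L6-Npy as well. Without unsorted library 1, 2 or 3 the interaction was called for 167, 252 and 355 genes.

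The interaction went the other way in the proteasome, CCT and tubulin families. They were picked after their values had been seen, so these counts are a description. Of 35 proteasome subunits 23, of 7 CCT subunits all and of 12 tubulins 8 had a smaller difference in L6-Npy, and in L6-Npy itself none of the 35, 7 or 11 tested was called. Tuba1a was at 562 ± 127 CPM in activity-high and 456 ± 117 CPM in activity-zero L6-Npy cells (interaction -1.28) and Psmd6 at 39.5 ± 9.95 and 39.0 ± 8.45 CPM (interaction -1.62). Cldn10, a claudin (-2.80 ± 0.48), and Adh5, an alcohol dehydrogenase (-2.07 ± 0.31), had the most negative interactions among well-counted genes, and 7 of 21 heat shock genes were smaller. In matched cells 8 proteasome, 5 CCT and 6 tubulin genes kept a called interaction. The depth and mitochondrial share of the groups differed more in L6-Syt6 than in L6-Npy, and their part in these interactions beyond the matching on total UMIs was not tested.

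The interaction with L5-S100b was called for 879 of 11811 genes (7.44%). Fos (interaction 0.03), Egr2 (-0.45) and Nr4a1 (0.14) were not called, whereas Junb (-0.68) and Jun (-0.51) had smaller differences in L5-S100b. Both lost the call without unsorted library 1 (-0.60 and -0.42) or 2 (-0.60 and -0.58), and Jun also without library 3 (-0.43). Neat1 had an interaction of -3.82 ± 0.72 and did not differ by the test within L5-S100b (log2 -0.11), although its interaction was not called without unsorted library 1 (-3.15). Csrp2, a LIM domain protein, was higher in activity-high L6-Syt6 and lower in activity-high L5-S100b cells (interaction -3.36 ± 0.30). Tshz2, lower in activity-high L6-Syt6 cells, was higher in activity-high L5-S100b cells (log2 2.68, interaction 5.76 ± 0.75), on few UMIs. Dnajb1 (-1.52), Hspa8 (-1.29), Tuba1a (-1.75) and Psmd6 (-1.37) again differed less than in L6-Syt6, as did 11 of 35 proteasome, 7 of 7 CCT and 8 of 12 tubulin genes. Without unsorted library 1, 2 or 3 this interaction was called for 369, 400 and 470 genes.

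**Figure D5:**
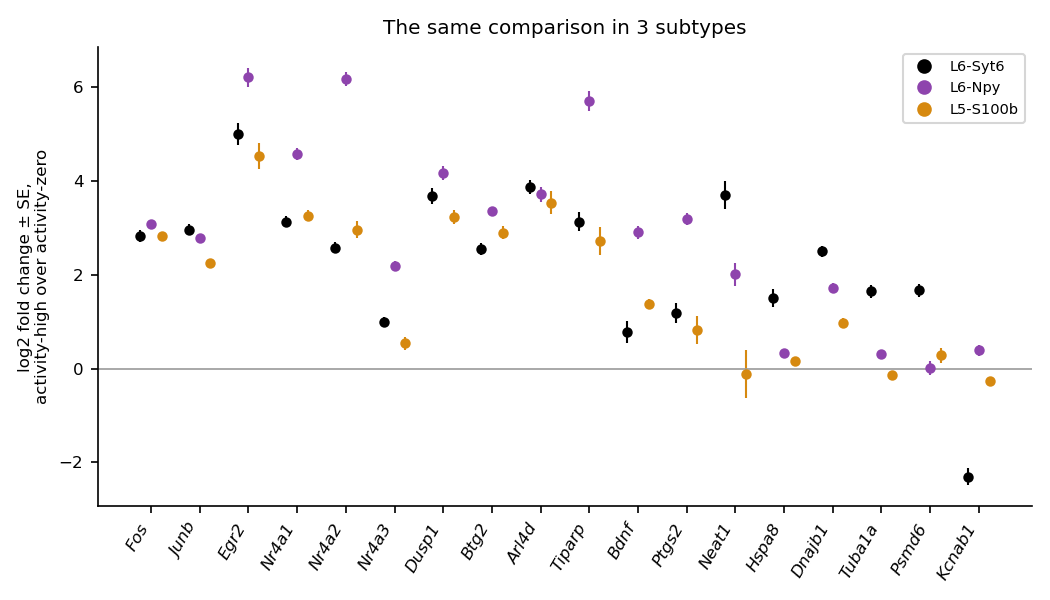
Log2 difference between activity-high and activity-zero cells, with SE, for 18 genes in L6-Syt6, L6-Npy and L5-S100b, tested over 4 libraries each. The 3 points of Fos lie close together, Bdnf and Nr4a2 are largest in L6-Npy, and Tuba1a, Psmd6 and Kcnab1 are farthest from 0 in L6-Syt6.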

How the data were processed

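The authors made count matrices from Chromium 3' v3 libraries with Cell Ranger against mm10 with the viral barcode added, and the deposited values are raw UMI counts per gene and cell with no normalization, per the labels and the file headers. How the counting used strand is not given in the sources used here. The deposited metadata give the authors' subtype names for 9368 excitatory neurons, kept after clustering in Seurat 3.1.4 (Scanpy 3.0.46 is also listed in the submitters' notes). Recomputed totals differed from the deposited ones by at most 70 UMIs. Metadata percentages of mitochondrial UMIs were used as deposited by the authors, in percent. No further doublet step was run.

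Counts were summed per library and group and tested with edgeR 4.0.16 in R 4.3.3 (TMM, filterByExpr, quasi-likelihood F test, library as block), with sums of 31053 listed genes less the grouping genes. Each library gave 1 sum of each group, so the library number pairs the sums by construction. DESeq2 1.42.0 and limma 3.58.1 were alternatives. CPM values are relative to the summed UMIs of a group, scaled by TMM. Level differences between genes were not compared. The test was tested on simulated data for the L6-Syt6 comparison with 13130 genes. An adjusted p under 0.05 alone, without the fold limit, was reached by 54.5% of genes changed by log2 0.5, 82.1% at 1 and 93.5% at 2. By the same limit there were 2 false calls. The shares are of changed genes that passed the filter on low counts. Python 3.11.15, numpy 2.4.6, pandas 2.3.3 and scipy 1.17.1 did the other steps. Intervals are 95% Wilson intervals and cover counting error only.

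The members and gene lists were chosen with earlier results of these data known. Named genes were the 12 highest and 12 lowest called genes with 1 sign in 4 of 4 libraries and a mean of at least 10 CPM over the 8 sums. Of each list the members with the highest and lowest values or with a described role were named, and where a list had few calls all were named, except 1 gene that is not reported here. Other families, and Hist1h2ac and the markers Syt6, Slc17a7 and Rgs5, were chosen after their values were seen. Interaction genes with a group at 0 UMIs are not named, since a fold against 0 is no bound. Group comparisons by projection target were not analysed here.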

Additional observations from a re-analysis of the deposited data

Results flagged for a closer look

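In 15 of 89 genes looked at, the difference of log2 CPM between the groups in 1 of 4 libraries lay far from the other 3. For 4 values of equal spread, chance gives such a gap in about 1 in 20. The sorted activity-zero sum held the fewest UMIs, so its spread need not equal the others and that rate may not apply. The sorted library was the distant one in 13 of the 15 genes. It lay above the other libraries for Dusp1 (5.52, others 3.48 to 3.61), Cebpb (2.49), Ubb (2.94) and Rplp0 (1.15), and below them for Hist1h4i (1.45, others at least 3.03). It was the most negative for Unc5c (-3.79), 2900060B14Rik (-2.85), Hist1h2ac (-2.43), Sorcs3 (-2.74), Slc17a7 (-0.24), mt-Co2 (-1.27, others -0.33 to -0.24) and mt-Co3 (-1.32). Its activity-zero group held 21 cells, the fewest, shallowest and highest in mitochondrial share, and the part of these in the values was not tested. It held 3 Dusp1 and 2 Cebpb UMIs. Atf3 was also among these genes (3.54), but with 0 Atf3 UMIs in the sorted activity-zero sum that value is set by the prior count and is no measured difference. Unsorted library 2 stood apart for Junb (3.04, others 2.92 to 2.94) and Kcna2 (-0.39, others -0.59 to -0.57), by small amounts.

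Differences between activity-high and activity-zero cells that were themselves different between L6-Npy and L6-Syt6 by the interaction test included those of Nr4a2 (3.65), Tiparp (2.64), Bdnf (2.17), Ptgs2 (2.04), Nr4a1 (1.48) and Nr4a3 (1.23), larger in L6-Npy, and of Tuba1a (-1.28), Psmd6 (-1.62), Adh5 (-2.07) and Cldn10 (-2.80), larger in L6-Syt6. Between L5-S100b and L6-Syt6 they included those of Tshz2 (5.76), Junb (-0.68), Jun (-0.51), Hspa8 (-1.29), Psmd6 (-1.37), Dnajb1 (-1.52), Tuba1a (-1.75), Csrp2 (-3.36) and Neat1 (-3.82). Between the sorted and the unsorted libraries they were, among the named genes, those of Dusp1 (2.00), Ubb (1.80), Hspa8 (1.35), Crym (1.27), Cct7 (1.21), Jund (0.94), Nfia (0.72) and Tuba1a (0.59). The interaction was negative for Galnt14 (-3.04), Ptprk (-2.95), Stum (-2.92), Rgs5 (-2.34), Cacna2d3 (-2.13), Unc5c (-2.09), Bdnf (-2.02), Sorcs3 (-1.83), C1ql3 (-1.34), Camk2d (-1.33), Tshz2 (-1.24), 2900060B14Rik (-1.20), Hist1h2ac (-1.18), Trp53i11 (-1.16), Ctgf (-1.10), mt-Co3 (-1.04), mt-Co2 (-0.97) and Nov (-0.94). In cells matched on total UMIs only Ubb (1.16), Jund (0.91) and, in the opposite direction, C1ql3 (1.74) of these genes were called. Without unsorted library 3 Cacna2d3 (-1.86), Cct7 (1.06) and Ctgf (-0.81) were not called.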

How the results depend on the processing

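The 1268 calls of the L6-Syt6 comparison became 1011 with DESeq2, 1219 without TMM factors and 1501 without the filter on low counts. Without the library block, that is without the pairing of sums by library, 818 genes were called. Matching on total UMIs gave 640 calls, the same in the unsorted libraries alone 699, matching on total UMIs and mitochondrial share 334, and a comparison with cells of 1 or 2 UMIs matched on total UMIs 822. Cells with 1 to 9 UMIs against 0 gave 65 calls, and the mean of per-cell CPM tested with limma gave 81. Matching lowers the number of cells and of genes tested, and how much of each loss comes from that was not tested. Leaving out 1 library gave 781 to 1310 calls, and 167 to 976 and 369 to 993 for the interactions with L6-Npy and L5-S100b. In cells matched on total UMIs these interactions were called for 263 and 376 genes, the sorting interaction for 135 and the L5-S100b comparison for 630. DESeq2 called 186 genes in L6-Npy and 526 in L5-S100b. The activity-high share of the unsorted libraries was 69.6% at a limit of 5 UMIs, 38.5% at 20 and 34.4% at 10000 UMIs per cell, and the ratio of median UMIs was 1.21 at 5 and 1.28 at 20. The cause of these changes was not tested.

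Of the values of named genes in the L6-Syt6 comparison, 1246 kept direction and side of the threshold over the alternatives, 311 no longer passed and 19 reversed. Matched on total UMIs and mitochondrial share, Ptprk was at 0.76, C1ql3 at 0.89, Cck at 1.05, Nfia at -0.056, Slc17a7 at 0.0078, mt-Co2 at 0.042 and mt-Co3 at 0.033. Against cells of 1 or 2 UMIs matched on total UMIs, C1ql3 was at 0.21, Cck at 0.44, Grin3a at 0.081, Ntng1 at 1.09 and Sst at 0.74, and unmatched Sst was at 0.025. Sst was at 0.069 without cells with other-class markers and ranged from -2.43 to 0.57 with 1 library left out. In cells with 1 to 9 UMIs against 0, Asns was at -0.011, Bdnf at -0.38 and Nr4a3 at -0.091, and Gabrd was at -0.075 by limma. In the sorting interaction in matched cells, Tshz2 was at 1.60, Unc5c at 0.75, C1ql3 at 1.74, Bdnf at 0.20, Hist1h2ac at 0.39 and Tuba1a at -0.22. In the interaction with L5-S100b, Nr4a1 was at -0.066 in matched cells, and with 1 library left out Fos ranged from -0.12 to 0.16 and Egr2 from -0.88 to 0.39. The activity-zero sums held fewer UMIs than the activity-high sums, and that of the sorted library held the fewest.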

Other observations

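The count matrices held 1 feature named barcode, which entered no test. It was taken as the viral barcodes together, although the study's methods describe 5 separate ones, so what it counts is uncertain. It went with the activity groups. Barcode UMIs per 1e6 UMIs were 327, 253, 295 and 408 in activity-high L6-Syt6 cells of the 3 unsorted and the sorted library and 118, 105, 125 and 68.0 in activity-zero cells. At least 1 barcode UMI was found in 54.2%, 50.8%, 51.2% and 94.5% of activity-high cells and in 43.5%, 38.6%, 38.2% and 33.3% of activity-zero cells. In the sorted library, whose cells had passed a sort for EGFP, 21 cells were activity-zero, with 22 barcode UMIs in all. Depth differed between the groups in the same direction. In cells matched on total UMIs the shares of cells with a barcode UMI were 46.25%, 40.0%, 52.4% and 81.25% in activity-high cells. In activity-zero cells they were 46.25%, 38.75%, 40.2% and 31.25%. The part of depth in the barcode UMIs per 1e6 UMIs was not tested.

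Cells with 1 or 2 summed UMIs of the grouping genes gave a deeper comparison group than cells with 0. Against them 1421 genes were called, 931 of them higher in activity-high cells, and 822 (567 higher) in cells matched on total UMIs. In contrast, cells with 1 to 9 UMIs against cells with 0 gave 28 of 11901 genes higher (0.235%) and 37 lower, among them 4 of 8 AP-1 genes and 6 of 26 Egr, Nr4a and Klf factors higher.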
